A study of Drosophila melanogaster with 16 samples.

Results

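The genotype by diet interaction is the difference between the sugar response of larvae labelled mutant for clockwork orange (cwo) and the sugar response of control larvae. It was measured in whole Drosophila melanogaster larvae over all 16 libraries of the study, 4 in each of 4 groups, and for 9837 of the 9863 genes listed. The groups were control larvae and larvae of the allele cwo B9, each kept on a low-sugar or a high-sugar diet. All larvae had fed on the low-sugar diet (10% yeast) for 24 h at 25 °C from the first instar on. In the early second instar they then spent 8 h either on the same low-sugar diet or on one of 10% yeast with 15% sucrose added, here called high sugar, and all the food was dyed blue. Feeding larvae were pooled for each sample, in a number the labels leave out. The labels give neither the strain of the control nor whether the 4 samples of a group came from separate cultures, so the spread behind each p-value may be technical. Each interaction value below is the mutant response minus the control response, where a response is the mean of log2(CPM + 0.5) on high sugar minus that on low sugar. It is given in log2 units ± SE from limma, with p-values adjusted by Benjamini-Hochberg over all 9837 genes and a threshold of 0.05. Levels are given for each library as CPM, the deposited values, which approximate read counts per 1e6 reads.

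Clockwork orange is a transcriptional repressor of the basic helix-loop-helix Orange family that binds E-box sites and dampens the output of the circadian activator pair Clock and Cycle. Larvae meet dietary sugar with a transcriptional programme in which the glucose sensor Mondo and its partner Mlx activate genes of glycolysis, lipogenesis and the pentose phosphate pathway, directly and through factors such as Sugarbabe and Cabut. The title of the series names Clockwork orange as a control of sugar-responsive transcription.

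The cwo transcript itself does not mark the mutant libraries as lacking it. In control larvae, cwo stood at 56.9, 57.8, 54.9 and 58.3 CPM on low sugar and at 64, 72.8, 71.2 and 67.6 CPM on high sugar. The cwo values of mutant-labelled larvae were 139, 194, 192 and 199 CPM on low sugar and 286, 267, 291 and 272 CPM on high sugar. All mutant-labelled libraries lay above all control libraries, so every direction given here rests on the labels and not on the level of cwo. The eye pigment gene w (white) was at most 0.869 CPM in the control libraries and at least 316 CPM in the mutant-labelled ones. The number of reads in listed genes, in units of 1e6, was 44.9 to 54.2 per library. In each group 1 library had the highest mean level of the 15 Tweedle cuticle genes, which are made around larval moults: replicate 1 of control on low sugar (5.26 log2 units), replicate 4 of control on high sugar (5.72), replicate 4 of mutant on low sugar (5.96) and replicate 3 of mutant on high sugar (5.72). The other libraries lay between 3.12 and 4.78. Counts that rest on these 4 libraries are therefore also given without them.

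The sugar response of 1659 genes, 16.9% of those tested, differed between the genotypes. The interaction was above 0 for 779 genes (7.92%) and below 0 for 880 (8.95%), and at least 1 log2 unit in size for 157 (1.60%), of which 52 were higher (0.529%) and 105 lower (1.07%). Over all genes tested the median interaction was 0.000434 log2 units. Of the 1659 genes, 988 (59.6%) responded in the same direction but less in the mutant-labelled larvae, 406 passed in control and did not pass in the mutant, and 18 fitted a strict rule for a lost response. That rule asked for a control response of at least 1 log2 unit and for a 95% interval of the mutant response within 0.5 log2 units of 0. Together these 1412 genes made up 85.1% of the called genes. For 151 of them, 147 not passing and 4 lost, the mutant estimate had the opposite sign to the control response. Another 70 responded more strongly in the mutant, 53 changed direction, 119 passed in the mutant only and 5 passed in neither genotype alone. These classes are cut from the same libraries as the interaction and are a description of it.

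The weaker, not passing and lost responses came in both directions. Of the 1412 genes, 721 had risen on sugar in control larvae and 691 had fallen. The classes were less even: 287 rises and 119 falls among those not passing, 15 and 3 among those lost, and 419 and 569 among the weaker. Over all tested genes the median size of the response was 0.32 log2 units in control and 0.21 in the mutant, and 945 genes in control but 410 in the mutant passed with a response of at least 1 log2 unit. The background of the diet response itself was 67.9% of genes called in control (33.1% higher and 34.8% lower on high sugar) and 52.1% in the mutant (22.5% higher and 29.5% lower). Across genes the 2 responses, which share no library, had a Pearson r of 0.86 and a Spearman rho of 0.86, as a description of 9837 genes that are not independent.

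Without the 4 libraries of highest Tweedle score, 790 genes were called (285 higher, 505 lower), of which 723 were among the 1659, all with the same sign. Of the 790, 81.8% fell in the lost, not passing and weaker classes. Without the 4 libraries of lowest Tweedle score, 1591 genes were called, 87.5% of them in these classes. Leaving out 1 library at a time gave 1196 genes (without replicate 4 of control on high sugar) to 2451 (without replicate 1 of mutant on low sugar). The latter raised the number of called genes with an interaction above 0 from 779 to 1201. The library left out there differed from replicates 2, 3 and 4 of its group by a median of 0.13, 0.21 and 0.20 log2 units. These replicates differed from each other by 0.086 to 0.12. Mutant on low sugar also had the largest median SD of the 4 groups, 0.126 against 0.085 to 0.094 log2 units.

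**Figure D1:**
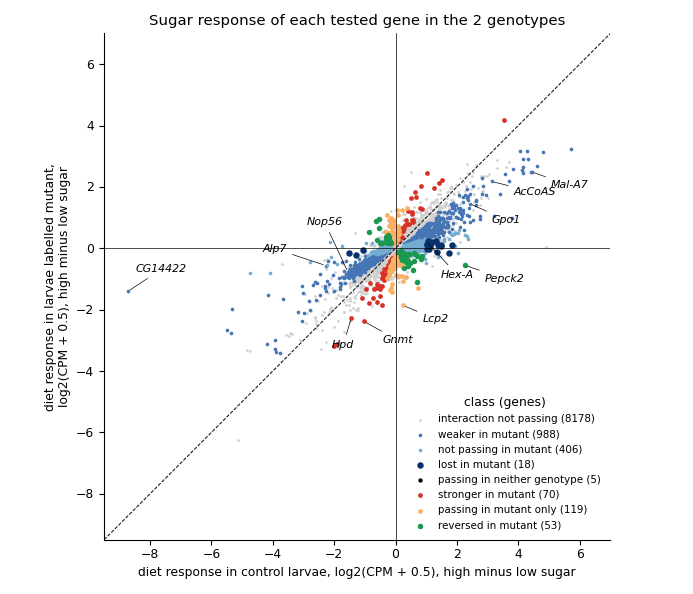
Sugar response of each of the 9837 tested genes in control larvae (x axis) and in mutant-labelled larvae (y axis), both in log2 units of CPM + 0.5, high minus low sugar, coloured by class. The dashed line marks equal responses, and the 988 weaker genes lie between it and the horizontal line at 0, on both the rising and the falling side.

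Read along the other axis, these responses came from unequal levels on either diet. Of the 721 genes whose rise was smaller or did not pass, 299 differed between the genotypes on low sugar only, 171 on high sugar only and 234 on both. On low sugar 476 of the 721 were higher in the mutant and 57 lower, while on high sugar 299 were lower in the mutant and 106 higher. Of the 691 genes whose fall was smaller or did not pass, 207 differed on low sugar only, 320 on high sugar only and 147 on both. On high sugar 419 of the 691 were higher in the mutant and 48 lower. Over all tested genes 43.8% differed between the genotypes on low sugar (23.1% higher and 20.8% lower in the mutant) and 40.0% on high sugar (21.1% higher and 18.9% lower). The same 4 group levels give the interaction and these differences, so the counts describe it and do not add to it.

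The interaction did not pass for the sugar-responsive transcription factor genes sug, cbt and Mondo, with exceptions under other settings for sug and Mondo. The interaction of sug, which encodes the zinc finger factor Sugarbabe, was -0.69 ± 0.27 (adjusted p = 0.0948). In control larvae, sug stood at 15.9, 8.93, 13.3 and 10.6 CPM on low sugar and at 116, 113, 119.8 and 141 CPM on high sugar. The sug values of mutant-labelled larvae were 15.8, 32.3, 20.3 and 16.8 CPM on low sugar and 126, 125, 129.7 and 131 CPM on high sugar. In both genotypes all high-sugar libraries of sug lay above all low-sugar libraries, and on high sugar the genotypes overlapped. The response of cbt, the gene of the repressor Cabut, was 1.39 ± 0.064 in control and 1.20 ± 0.064 in the mutant, with an interaction of -0.19 ± 0.091 (adjusted p = 0.168). Mondo rose by 1.18 ± 0.07 and 0.97 ± 0.07 log2 units, with an interaction of -0.21 ± 0.10 (adjusted p = 0.167). The 95% interval of the interaction reached from -1.26 to -0.11 for sug and from -0.42 to 0.0023 for Mondo, so these responses are not shown to be equal. The interaction of sug passed with array weights (adjusted p = 0.0247), without replicate 1 of control on low sugar (0.0452) and without replicate 1 of mutant on low sugar (0.0391). That of Mondo passed without the last of these (0.0482). Of 9 tested genes of the Mondo-Mlx list 1 passed (11.1% against 16.9% of all genes), tobi, which is described with the reversed genes.

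Of 15 tested members of the circadian list, 2 were higher and 1 lower in the interaction (20.0%, near the 16.9% of all genes), and none passed without the 4 libraries of highest Tweedle score. The 2 higher were the kinase subunit gene CkIIalpha with 0.30 ± 0.083 (adjusted p = 0.0236) and the kinase gene CkIalpha, whose values are not printed. The activator gene Pdp1 was lower at -0.24 ± 0.077 (adjusted p = 0.0459). The Pdp1 call was also lost with a pseudocount of 5 (adjusted p = 0.0509), median-ratio scaling (0.0616), a robust fit (0.0506), array weights (0.0762), the square root scale (0.33) and in 12 of 16 fits that left out 1 library. CkIIalpha lost its call in 2 of those 16. The cwo transcript rose on sugar in both genotypes, by 0.27 ± 0.089 in control and 0.64 ± 0.089 in the mutant, and its interaction of 0.37 ± 0.13 (adjusted p = 0.0574) lay just above the threshold and passed under several other settings. The light-sensitive partner of the clock repressor complex, tim, responded by 1.68 ± 0.10 in control and 1.63 ± 0.10 in the mutant. Its interaction was -0.047 ± 0.14 (adjusted p = 0.858) on this scale, but tim stood at 1.32 ± 0.290 and 5.30 ± 0.390 CPM (mean ± SD, n = 4) in control and at 11.5 ± 0.262 and 37 ± 4.64 CPM in the mutant. On the square root scale and with a pseudocount of 5 the tim interaction was above 0 and passed (adjusted p = 1.33e-04 and 2.42e-04). The interaction of vri, a repressor of Clock, was 0.54 ± 0.41 (adjusted p = 0.399).

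Some genes of glycolysis and the glycerophosphate shuttle rose less on sugar in the mutant, while the median interaction of the list was near 0. Of the 16 tested genes, 5 were lower and 2 higher in the interaction (43.8% against 16.9% of all genes). Their median interaction was -0.0063, with 7 above 0 and 9 below. Without the 4 libraries of highest Tweedle score 3 were lower and 1 higher, where 8.03% of all genes passed, and the median was 0.019. Of 5 genes named for gluconeogenesis 3 were found among the listed genes. All 3 were lower, against 8.95% of all genes, and 2 were so without those libraries, against 5.13%. Hex-A encodes hexokinase, which phosphorylates glucose (chromosome X, 9585675 to 9589813, BDGP6). In control larvae, Hex-A stood at 177, 169, 175 and 176 CPM on low sugar and at 335, 349, 356 and 375 CPM on high sugar. The Hex-A values of mutant-labelled larvae were 261, 310.1, 297 and 288 CPM on low sugar and 338, 333, 327 and 339 CPM on high sugar. The genotypes did not overlap on low sugar, where the mutant was higher by 0.72 ± 0.048 log2 units, and overlapped on high sugar. The response of Hex-A was 1.02 ± 0.048 in control and 0.21 ± 0.048 in the mutant, an interaction of -0.81 ± 0.068 (adjusted p = 5.72e-06).

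Gpo1, listed as Gpo-1, encodes the mitochondrial glycerophosphate oxidase of the shuttle that moves cytosolic reducing equivalents to the respiratory chain. In control larvae, Gpo1 stood at 363, 347, 376 and 361 CPM on low sugar and at 1929.7, 1989, 1901 and 1925 CPM on high sugar. The Gpo1 values of mutant-labelled larvae were 1174, 1329, 1094 and 1139 CPM on low sugar and 3179, 3217, 3252 and 3276 CPM on high sugar. No 2 of the 4 groups overlapped, and both mutant groups were higher than the control group on the same diet. Its interaction was -0.97 ± 0.07 (adjusted p = 1.44e-06), from a response of 2.42 ± 0.049 in control and 1.45 ± 0.049 in the mutant. In CPM the mean gain was 1575 in control and 2047 in the mutant, so that the smaller response of Gpo1 holds for the fold and not for the number of transcripts added, and on the square root scale it did not pass (adjusted p = 0.0804). Over the 1659 called genes, the difference of the CPM gains had the opposite sign to the interaction for 32. Gpdh1, listed as Gpdh, encodes the cytosolic partner of Gpo1 and was lower in the interaction, at -0.47 ± 0.08 (adjusted p = 0.00142). The lactate dehydrogenase gene ImpL3, now called Ldh, fell on sugar at -0.68 ± 0.055 in control and less in the mutant (-0.24 ± 0.055), with an interaction of 0.45 ± 0.078 (adjusted p = 0.0018).

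The response of phosphoenolpyruvate carboxykinase 2 changed direction. Pepck2, listed as CG10924, belongs to the enzymes that feed gluconeogenesis and glycerol synthesis and lies at chromosome 2R, 18527430 to 18535749 (BDGP6). In control larvae, Pepck2 stood at 19.8, 6.95, 11.2 and 9.63 CPM on low sugar and at 49.1, 50.6, 56.2 and 67.3 CPM on high sugar. The Pepck2 values of mutant-labelled larvae were 14, 14.4, 19.2 and 15.1 CPM on low sugar and 9.53, 10.8, 11 and 10.3 CPM on high sugar. All high-sugar libraries of control lay above all others, and the mutant libraries on high sugar lay below those on low sugar. The response was 2.27 ± 0.22 log2 units in control and -0.56 ± 0.22 in the mutant (adjusted p = 0.041), an interaction of -2.83 ± 0.30 (adjusted p = 3.50e-05). The other members were smaller: fbp, fructose-1,6-bisphosphatase, had -0.44 ± 0.06 (adjusted p = 2.92e-04) and PCB, pyruvate carboxylase, -0.34 ± 0.084 (adjusted p = 0.0143). PCB no longer passed without the 4 libraries of highest Tweedle score (adjusted p = 0.0556) or after quantile normalization (0.176).

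Some sugar-handling genes responded more strongly in the mutant. UGP encodes UTP-glucose-1-phosphate uridylyltransferase, which makes the precursor of glycogen and of trehalose. In control larvae, UGP stood at 117, 122, 126 and 132 CPM on low sugar and at 229, 224, 223 and 236 CPM on high sugar. The UGP values of mutant-labelled larvae were 133, 132, 140.0 and 135 CPM on low sugar and 329, 323, 329 and 338 CPM on high sugar. The control and mutant libraries of UGP overlapped on low sugar and were separate on high sugar, with an interaction of 0.41 ± 0.055 (adjusted p = 2.50e-04). Sodh-2, sorbitol dehydrogenase, fell, at -0.64 ± 0.073 in control and at -1.29 ± 0.073 in the mutant, an interaction of -0.65 ± 0.10 (adjusted p = 9.68e-04). The aldo-keto reductase genes CG12766 and CG10863 rose less, with -1.56 ± 0.16 (adjusted p = 2.71e-05) and -0.45 ± 0.053 (adjusted p = 8.18e-05). For CG12766 the mutant was 2.35 log2 units above control on low sugar, its gain in CPM was larger in the mutant, and the interaction changed sign on the square root scale. In all, 2 of the 24 tested genes of trehalose, glycogen and polyol metabolism were higher and 3 lower, 20.8% against a background of 16.9%. Of the 7 pentose phosphate genes, Zw, glucose-6-phosphate dehydrogenase, was lower at -0.39 ± 0.12 (adjusted p = 0.0322) and CG30499, now Rpe, was higher at 0.35 ± 0.084 (adjusted p = 0.0119). Zw did not pass without the 4 libraries of highest Tweedle score (adjusted p = 0.172) or in 5 of 16 fits that left out 1 library. The 2 of 7 are 28.6% of that list.

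**Figure D2:**
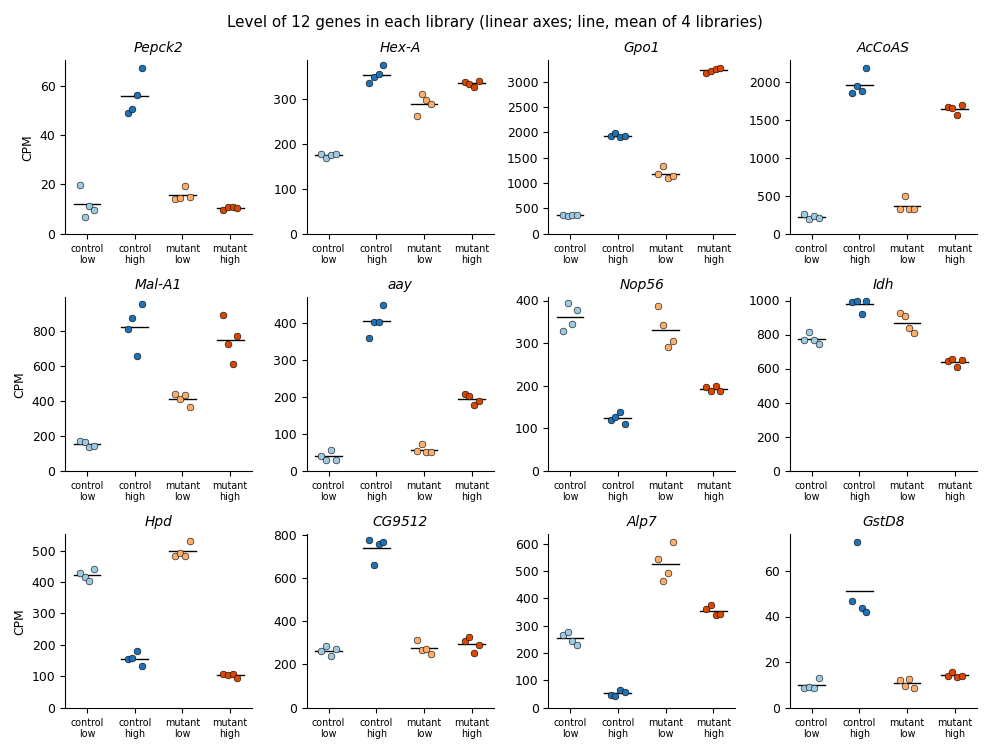
Level of 12 genes in CPM (linear y axes from 0) in each of the 16 libraries, by genotype and diet; points are libraries and the line is the mean of 4. Hex-A and Mal-A1 differ between the genotypes mainly on low sugar, aay, CG9512, GstD8 and Pepck2 on high sugar, and Gpo1 and Alp7 on both diets.

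Several genes of fatty acid synthesis rose on sugar in both genotypes and rose less in the mutant. Of 15 tested members 7 were lower in the interaction and none was higher (46.7%, against 8.95% lower among all genes). Without the 4 libraries of highest Tweedle score 3 were lower, against 5.13% of all genes. The median response of the 15 was 1.03 in control and 0.78 in the mutant. AcCoAS encodes the acetyl-CoA synthetase that supplies the building block of the chain. In control larvae, AcCoAS stood at 257, 199.9, 227 and 209 CPM on low sugar and at 1848, 1940.4, 1873 and 2183 CPM on high sugar. The AcCoAS values of mutant-labelled larvae were 326, 499, 329.6 and 325 CPM on low sugar and 1669.8, 1658, 1557 and 1696 CPM on high sugar. The libraries of the genotypes did not overlap on either diet, with the mutant higher on low sugar and lower on high sugar. By limma the genotype difference on high sugar did not pass (-0.25 ± 0.12, adjusted p = 0.106). Its interaction was -0.96 ± 0.17 (adjusted p = 0.00169), from 3.14 ± 0.12 in control and 2.18 ± 0.12 in the mutant. ACC, acetyl-CoA carboxylase, had an interaction of -0.65 ± 0.17 (adjusted p = 0.0163), and the malic enzyme gene Men one of -0.38 ± 0.073 (adjusted p = 0.00323). FASN1, the main fatty acid synthase gene and named outside the rule for named genes, rose from 1519 ± 58.7 to 7626 ± 525 CPM in control and from 2494 ± 721 to 7564 ± 348 CPM in the mutant (mean ± SD, n = 4), with an interaction of -0.68 ± 0.19 (adjusted p = 0.0228). On high sugar the FASN1 libraries of the genotypes overlapped. Without the 4 libraries of highest Tweedle score neither ACC (adjusted p = 0.119) nor FASN1 (0.132) passed, while AcCoAS and Men did. ACC was also lost after quantile normalization (0.0544) and FASN1 on the square root scale (0.0703). The glycerolipid gene fu12, now Agpat2, was lower at -0.53 ± 0.11 (adjusted p = 0.00553).

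Idh, which encodes the NADP-dependent isocitrate dehydrogenase, changed direction. In control larvae, Idh stood at 766, 813, 769.7 and 743 CPM on low sugar and at 989.9, 999.8, 919 and 999 CPM on high sugar. The Idh values of mutant-labelled larvae were 925, 908, 839.8 and 809 CPM on low sugar and 643, 658, 609.8 and 651 CPM on high sugar. In control all high-sugar libraries of Idh lay above the low-sugar ones, and in the mutant all lay below. The response was 0.34 ± 0.048 in control and -0.44 ± 0.048 in the mutant, an interaction of -0.78 ± 0.068 (adjusted p = 6.60e-06). It was the 1 member of 23 tested genes of the TCA cycle list that passed, and by limma none of 68 tested genes of oxidative phosphorylation did (1 at an unadjusted p under 0.05), against 16.9% of all genes.

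Digestive carbohydrases and proteases of the midgut differed between the genotypes in both directions. Of 14 tested amylases, maltases and glucosidases, 7 were lower and 4 higher in the interaction, 78.6% against 16.9% of all genes (6 and 4 without the 4 libraries of highest Tweedle score). The maltases of the Mal-A cluster on chromosome 2R cut sucrose and maltose, and those named here rose on sugar in control. In control larvae, Mal-A1 stood at 170.4, 163, 138 and 140.5 CPM on low sugar and at 812, 878, 659 and 953 CPM on high sugar. The Mal-A1 values of mutant-labelled larvae were 437, 413, 431 and 366 CPM on low sugar and 893, 726, 609 and 772 CPM on high sugar. On low sugar all mutant libraries of Mal-A1 lay above those of control, and on high sugar the genotypes overlapped. The Mal-A1 interaction was -1.57 ± 0.17 (adjusted p = 3.81e-05). Mal-A7 rose by 4.43 ± 0.21 in control and 2.49 ± 0.21 in the mutant, and Mal-A8, named outside the rule, by 4.15 ± 0.23 and 2.47 ± 0.23. Mal-A6 rose by 1.76 ± 0.15 in control and responded by 0.32 ± 0.15 in the mutant (adjusted p = 0.0934), an interaction of -1.44 ± 0.21 (adjusted p = 5.94e-04). For Mal-A6, Mal-A7 and Mal-A8 the difference lay on high sugar, where all mutant libraries were below those of control, and on low sugar the genotypes overlapped. The amylase-related gene Amyrel, also outside the rule, fell, at -3.18 ± 0.14 in control and at -2.06 ± 0.14 in the mutant, an interaction of 1.12 ± 0.19 (adjusted p = 0.00169) that did not pass on the square root scale (adjusted p = 0.191).

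Of 29 tested trypsin-like and Jonah proteases, 8 were lower and 2 higher, 34.5% against 16.9% of all genes (8 and none without the 4 libraries of highest Tweedle score), with a median interaction of -0.31. epsilonTry, a trypsin, rose by 1.59 ± 0.10 in control and 0.54 ± 0.10 in the mutant, with an interaction of -1.05 ± 0.14 (adjusted p = 2.50e-04). thetaTry had an interaction of -1.0 ± 0.18 (adjusted p = 0.00233) and alphaTry one of -0.94 ± 0.18 (adjusted p = 0.00361), and all 3 stood higher in the mutant on low sugar. alphaTry did not pass on the square root scale (adjusted p = 0.201). Jon74E, a Jonah protease, overlapped on low sugar and was lower in the mutant on high sugar, with an interaction of -0.79 ± 0.16 (adjusted p = 0.00496). Trypsin and maltase genes have similar neighbours, so reads may be split between copies. In whole larvae fewer gut cells and less RNA per gut cell cannot be told apart. Among 11 gut enterocyte markers, 2 were higher and 4 lower, 54.5% against 16.9% of all genes. Their summed level ranged from 3072 to 3725 CPM in control and 2649 to 4025 CPM in the mutant on low sugar. On high sugar it ranged from 4058 to 5172 CPM in control and 3221 to 4018 CPM in the mutant. The part of this in the digestive genes was not tested.

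The named genes of serine synthesis rose less in the mutant, and those of tyrosine breakdown fell more. The gene aay encodes phosphoserine phosphatase, the last step of serine synthesis from glycolysis (chromosome 3L, 9423253 to 9424781, BDGP6). In control larvae, aay stood at 40.9, 29.3, 55.5 and 29.4 CPM on low sugar and at 359.7, 403, 403 and 448 CPM on high sugar. The aay values of mutant-labelled larvae were 52.1, 72.5, 51.1 and 51.4 CPM on low sugar and 207, 202, 176 and 187 CPM on high sugar. The genotypes overlapped on low sugar, and on high sugar every mutant library lay below every control library. The aay interaction was -1.64 ± 0.24 (adjusted p = 5.06e-04), and that of CG11899, phosphoserine aminotransferase in the same pathway, was -0.61 ± 0.089 (adjusted p = 4.78e-04). CG3999, the glycine decarboxylase gene, fell, at -0.81 ± 0.079 in control and responded by -0.11 ± 0.079 in the mutant (adjusted p = 0.246), an interaction of 0.70 ± 0.11 (adjusted p = 9.44e-04). CG7560, the methylenetetrahydrofolate reductase gene, fell less in the mutant at 0.87 ± 0.12 (adjusted p = 3.77e-04). Gnmt, glycine N-methyltransferase, which uses up S-adenosylmethionine, fell, at -1.04 ± 0.19 in control and at -2.38 ± 0.19 in the mutant, an interaction of -1.34 ± 0.28 (adjusted p = 0.00489). Of 21 tested genes of serine, glycine and one-carbon metabolism, 3 were higher and 6 lower, 42.9% against 16.9% of all genes (3 and 5 without the 4 libraries of highest Tweedle score).

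Of 26 tested genes of amino acid catabolism, 3 were higher and 9 lower in the interaction, 46.2% against 16.9% of all genes (1 and 7 without those 4 libraries). Hpd, listed as CG11796, encodes 4-hydroxyphenylpyruvate dioxygenase. In control larvae, Hpd stood at 428, 415, 404 and 442 CPM on low sugar and at 154, 157, 182 and 132 CPM on high sugar. The Hpd values of mutant-labelled larvae were 485, 494, 482 and 531 CPM on low sugar and 107, 103, 108 and 94.5 CPM on high sugar. In both genotypes all low-sugar libraries of Hpd lay above all high-sugar ones, and on high sugar the mutant lay below control. The fall was -1.44 ± 0.075 in control and -2.27 ± 0.075 in the mutant, an interaction of -0.83 ± 0.11 (adjusted p = 1.94e-04). The next enzyme gene, hgo for homogentisate 1,2-dioxygenase, did not pass in control (-0.19 ± 0.11, adjusted p = 0.148) and fell in the mutant at -1.35 ± 0.11, an interaction of -1.15 ± 0.16 (adjusted p = 3.75e-04). Hn, phenylalanine hydroxylase at the head of the pathway, had an interaction of -0.54 ± 0.083 (adjusted p = 7.66e-04). The 2 genotypes overlapped on high sugar for hgo and on low sugar for Hn.

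Of 24 tested genes of fatty acid oxidation 2 were higher and 8 lower in the interaction (41.7%, against 7.92% higher and 8.95% lower among all genes). Without the 4 libraries of highest Tweedle score 4 were lower, against 5.13% of all genes. Thiolase, now Mtpbeta, rose by 0.29 ± 0.034 in control and did not pass in the mutant (-0.053 ± 0.034, adjusted p = 0.206). yip2, a further thiolase gene, fell, at -0.43 ± 0.069 in control and -0.98 ± 0.069 in the mutant. Their interactions were -0.35 ± 0.048 (adjusted p = 3.69e-04) and -0.55 ± 0.10 (adjusted p = 0.00184).

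The fall of most ribosome biogenesis genes on sugar was smaller in the mutant. Of 31 tested genes of small nucleolar ribonucleoproteins and ribosome biogenesis, 26 (83.9%) were higher in the interaction and none was lower, against 7.92% higher among all genes tested. All 26 fell in both genotypes and fell less in the mutant, and the median response of the 31 was -1.15 in control and -0.69 in the mutant. The interaction was above 0 for 29 of the 31, against 4925 of all 9837 genes. Nop56 encodes a core protein of box C/D particles, which guide the methylation of ribosomal RNA (chromosome 3R, 22419095 to 22421068, BDGP6). In control larvae, Nop56 stood at 329, 394, 346 and 377 CPM on low sugar and at 119, 127, 138 and 109 CPM on high sugar. The Nop56 values of mutant-labelled larvae were 387, 344, 292 and 304 CPM on low sugar and 197, 188, 199 and 187 CPM on high sugar. On low sugar the genotypes overlapped, and on high sugar every mutant library of Nop56 lay above every control library. Nop56 fell, at -1.55 ± 0.087 in control and -0.78 ± 0.087 in the mutant, an interaction of 0.77 ± 0.12 (adjusted p = 9.58e-04). Its partner nop5 had 0.66 ± 0.12 (adjusted p = 0.00201), hoip, the 15.5K-type protein of the same particle, 0.72 ± 0.14 (adjusted p = 0.00368), and Nmd3, an export adaptor of the large subunit, 0.55 ± 0.10 (adjusted p = 0.00187). Each of these overlapped between the genotypes on low sugar and was separate on high sugar.

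The number called depends on the libraries, for this list as for all genes. Without the 4 libraries of highest Tweedle score 12 of 31 passed, all higher, against 2.90% higher among all genes in that fit. The interaction was still above 0 for 29 of the 31, with a median of 0.44 in place of 0.49. On the square root scale 15 passed. Few genes for the proteins of finished ribosomes passed. Of 89 tested genes of the cytosolic ribosomal protein list 1 was higher, RpLP0-like, which is a ribosome assembly factor and not a subunit (0.50 ± 0.12, adjusted p = 0.0125), and it did not pass without those 4 libraries (adjusted p = 0.0927). Of 75 mitochondrial ribosomal protein genes 6 were higher and none lower (8.0%, near the 7.92% higher of all genes), led by mRpL39 at 0.36 ± 0.074 (adjusted p = 0.0053), with 71 of the 75 above 0 and a median of 0.14. Of 34 genes matched as proteasome genes, 1 of which (Prosap) is not one, Rpn6 alone passed, at 0.16 ± 0.052 (adjusted p = 0.0456), a call lost without those 4 libraries (adjusted p = 0.163) and in 13 of 16 fits that left out 1 library.

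**Figure D3:**
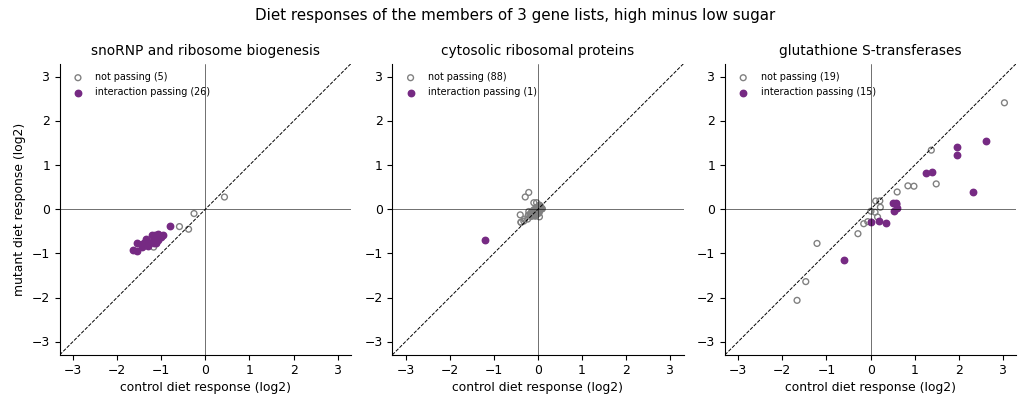
Diet responses of each tested member of 3 gene lists in log2 units, control on the x axis and mutant on the y axis, with filled points past the interaction threshold and the dashed line at equal responses. The 26 filled points of the ribosome biogenesis list lie above the line and below 0, the cytosolic ribosomal proteins lie near the origin apart from RpLP0-like, and the 15 filled glutathione S-transferases lie below the line.

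Among genes of detoxification, the shares called differed between families. Of 72 tested cytochrome P450 genes 23 were lower and 2 higher, 34.7% in all against 16.9%, and 16 and 2 without the 4 libraries of highest Tweedle score. Of 34 glutathione S-transferase genes 15 were lower and none higher (44.1%, against 8.95% lower among all genes), and 15 were lower without those libraries. Cyp12a4 and Cyp12a5 encode mitochondrial P450 enzymes and lie side by side on chromosome 3R. In control larvae, Cyp12a4 stood at 84.4, 84.7, 85.7 and 93.5 CPM on low sugar and at 130.0, 129, 127 and 141 CPM on high sugar. The Cyp12a4 values of mutant-labelled larvae were 184, 160.3, 180.0 and 171 CPM on low sugar and 132, 129, 126 and 139 CPM on high sugar. The Cyp12a4 libraries on high sugar lay above those on low sugar in control and below them in the mutant, and the genotypes overlapped on high sugar. The response was 0.60 ± 0.052 in control and -0.40 ± 0.052 in the mutant, an interaction of -1.0 ± 0.073 (adjusted p = 1.56e-06). Cyp12a5 rose by 1.93 ± 0.11 in control and 0.49 ± 0.11 in the mutant, with overlapping genotypes on low sugar (-1.44 ± 0.15, adjusted p = 2.75e-05). Cyp6g1, known for resistance to insecticides, fell, at -0.62 ± 0.088 in control and at -1.76 ± 0.088 in the mutant, with an interaction of -1.14 ± 0.12 (adjusted p = 3.66e-05). Cyp309a1 changed direction, from 0.82 ± 0.11 to -0.36 ± 0.11.

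Of the glutathione S-transferases that passed, GstD8 had the largest interaction on the log2 scale. GstE7 rose more in control and had the larger difference in CPM. In control larvae, GstD8 stood at 8.60, 9.17, 8.55 and 12.9 CPM on low sugar and at 46.7, 72.9, 43.7 and 42 CPM on high sugar. The GstD8 values of mutant-labelled larvae were 12.3, 9.64, 12.4 and 8.73 CPM on low sugar and 13.7, 15.5, 13.7 and 13.8 CPM on high sugar. All control libraries on high sugar lay above all others, and in the mutant the high-sugar libraries lay just above the low-sugar ones without overlap. On low sugar the genotypes overlapped. The rise was 2.31 ± 0.17 in control and did not pass in the mutant at 0.40 ± 0.17 (adjusted p = 0.0592), an interaction of -1.92 ± 0.24 (adjusted p = 1.29e-04). GstE7 and GstE12 rose less in the mutant, with interactions of -1.06 ± 0.15 (adjusted p = 3.64e-04) and -0.36 ± 0.052 (adjusted p = 4.59e-04). Of 32 UDP-glycosyltransferases, which attach sugars to lipophilic compounds, 6 were lower and 1 higher (21.9%, near the 16.9% of all genes), led by CG4302, now Ugt49B1, at -0.68 ± 0.088 (adjusted p = 1.99e-04).

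Many cuticle genes rose on sugar in control larvae, and fewer passed as rising in the mutant. Of 69 tested cuticle protein genes outside the Tweedle family, 34 rose and 3 fell in control while 7 rose and 9 fell in the mutant. Over all genes 33.1% rose in control, and 22.5% rose and 29.5% fell in the mutant. In the interaction 20 were lower and 2 higher, 31.9% against 16.9% of all genes. Lcp2, a larval cuticle protein, showed the largest difference of the named members. In control larvae, Lcp2 stood at 12.4, 12.8, 12.9 and 17 CPM on low sugar and at 16.3, 15.8, 17.6 and 15.5 CPM on high sugar. The Lcp2 values of mutant-labelled larvae were 19.5, 22.4, 33 and 30.2 CPM on low sugar and 5.47, 7.54, 6.81 and 7.20 CPM on high sugar. In the mutant every high-sugar library of Lcp2 lay below every low-sugar one, and in control the diets overlapped. The response was 0.24 ± 0.15 in control (adjusted p = 0.153) and -1.86 ± 0.15 in the mutant, an interaction of -2.11 ± 0.21 (adjusted p = 1.56e-05). Lcp1 changed direction by the test (0.40 ± 0.15 and -0.59 ± 0.15). Its mutant libraries overlapped between the diets, at 1.61 to 2.60 CPM on low and 0.979 to 1.85 CPM on high sugar. These levels are not far above the added constant of 0.5 CPM. Lcp4 rose by 0.69 ± 0.094 in control and did not pass in the mutant (-0.083 ± 0.094). CG16885, now Vajk2, rose by 1.01 ± 0.077 in control and 0.31 ± 0.077 in the mutant, and Cpr97Eb had a strictly lost response (-1.10 ± 0.16, adjusted p = 5.74e-04).

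Of 35 tested genes of chitin metabolism 10 were lower and 1 higher, 31.4% against 16.9% of all genes. The chitin-binding gene obst-B had an interaction of -0.82 ± 0.11 (adjusted p = 3.11e-04), and mmy, which makes the activated sugar for chitin synthesis, one of -0.69 ± 0.10 (adjusted p = 6.70e-04). By limma none of the 15 Tweedle genes passed (0 at an unadjusted p under 0.05), and their summed level spanned 1219 to 1587 and 880 to 2384 CPM in control on low and high sugar and 1129 to 2587 and 1055 to 2319 CPM in the mutant. Without the 4 libraries of highest Tweedle score 12 of the 69 cuticle genes and 8 of the 35 chitin genes passed, all of them lower. The part of the stage of the moult in the cuticle counts was not tested. Cpr92F, which passed in the mutant only (-1.16 ± 0.32, adjusted p = 0.0247), did not pass without those libraries (adjusted p = 0.173) or in 3 of 16 fits that left out 1 library.

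The strictly lost responses were mostly rises. Of the 18 genes, 15 rose and 3 fell in control, where 508 rises and 437 falls passed with at least 1 log2 unit. The class held 10 to 24 genes when 1 library was left out and 11 without the 4 libraries of highest Tweedle score. CG9512, which encodes an oxidoreductase of the glucose-methanol-choline family on the X chromosome, was among the 18. In control larvae, CG9512 stood at 260.0, 284, 237 and 272 CPM on low sugar and at 776, 659, 758 and 768 CPM on high sugar. The CG9512 values of mutant-labelled larvae were 312, 269, 271 and 247 CPM on low sugar and 307, 329, 251 and 289.7 CPM on high sugar. Every control library on high sugar lay above all 12 others, which overlapped with each other. The response was 1.49 ± 0.088 in control and 0.10 ± 0.088 in the mutant, with a 95% interval from -0.092 to 0.28, and the interaction was -1.39 ± 0.12 (adjusted p = 7.30e-06). CG1139, now acs, which encodes an amino acid transporter of the SLC36 type, rose by 1.35 ± 0.14 in control with -0.13 ± 0.14 in the mutant. CG9664, a transporter of the ABC family, rose by 1.10 ± 0.10 in control with -0.022 ± 0.10 in the mutant. CG17570 (-1.90 ± 0.18, adjusted p = 1.08e-05), CG4367 (-1.74 ± 0.24, adjusted p = 3.05e-04) and CG7296 (-1.41 ± 0.23, adjusted p = 0.0011) had lost their rise as well, and on low sugar CG4367, CG7296, CG9664 and CG1139 were already higher in the mutant, the last with overlapping libraries. CG17570 stood below 1 CPM in all mutant libraries, so that a response there is set in part by the added constant.

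The largest interaction was that of CG14422, whose level on low sugar was far lower in the mutant than in control. It lies in a run of neighbouring genes on the X chromosome with CG14420, CG32793 and CG3598. In control larvae, CG14422 stood at 549.8, 176, 455 and 178 CPM on low sugar and at 0.304, 0.337, 0.145 and 0.0639 CPM on high sugar. The CG14422 values of mutant-labelled larvae were 4.95, 0.357, 1.47 and 0.613 CPM on low sugar and 0.0213, 0.0404, 0.357 and 0.357 CPM on high sugar. In control all low-sugar libraries of CG14422 lay above all high-sugar ones, while the mutant libraries overlapped near 0. Its interaction was 7.32 ± 0.69 (adjusted p = 1.08e-05), that of CG32793 3.35 ± 0.51 (adjusted p = 7.10e-04), of CG3598 2.82 ± 0.84 (adjusted p = 0.0322) and of CG14420 2.59 ± 0.83 (adjusted p = 0.0443). For CG14422 the control libraries on high sugar and most mutant libraries lay near or below the added constant of 0.5 CPM, so the size of its interaction depends on that constant. CG32793 stood at 17.3, 6.82, 9.33 and 7.12 CPM in the mutant on low sugar and fell there as well. For CG3598 and CG14420 all mutant libraries on high sugar were below 0.5 CPM, and both calls were lost at a pseudocount of 0.25 (adjusted p = 0.0858 and 0.123). The calls were also lost in 8 and 13 of 16 fits that left out 1 library. CG3598 and CG14420 did not pass without the 4 libraries of highest Tweedle score (adjusted p = 0.225 and 0.282).

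Reversed responses also included low transcripts. tobi, an alpha-glucosidase gene known to respond to insulin-like peptides and glucagon-like hormone, fell, at -0.86 ± 0.13 in control and rose by 0.54 ± 0.13 in the mutant, an interaction of 1.40 ± 0.18 (adjusted p = 2.23e-04). In control larvae, tobi stood at 14, 17.4, 14.1 and 12.8 CPM on low sugar and at 6.74, 8.57, 7.06 and 8.81 CPM on high sugar. The tobi values of mutant-labelled larvae were 0.217, 0.0939, 0.287 and 0.287 CPM on low sugar and 0.596, 0.344, 0.635 and 0.615 CPM on high sugar. All mutant libraries of tobi were under 1 CPM and the control libraries above 6, so the mutant response of tobi is set in part by the added constant. Npc2c, of the sterol-binding Niemann-Pick type C2 family, rose by 0.69 ± 0.22 in control and fell, at -1.10 ± 0.22 in the mutant (-1.80 ± 0.31, adjusted p = 0.00165). The alkaline phosphatase CG3292, now Alp7, fell, at -2.27 ± 0.11 in control and at -0.56 ± 0.11 in the mutant. In control larvae, Alp7 stood at 266, 278, 246 and 231 CPM on low sugar and at 46.7, 44.4, 62.8 and 57.4 CPM on high sugar. The Alp7 values of mutant-labelled larvae were 544, 462, 491 and 607 CPM on low sugar and 362, 376, 339.9 and 341 CPM on high sugar. Both mutant groups of Alp7 lay above both control groups, and the interaction was 1.71 ± 0.15 (adjusted p = 6.60e-06). Its neighbour Alp2 fell, at -1.73 ± 0.14 and -0.46 ± 0.14, and CG3264, now Alp8, changed direction from -0.62 ± 0.10 to 0.26 ± 0.10 (adjusted p = 0.0435 in the mutant). The Alp8 libraries of the mutant overlapped between the diets, at 733 to 965 CPM on low and 937 to 1009 CPM on high sugar. Alp2 did not pass with a pseudocount of 5 (adjusted p = 0.791) or on the square root scale (0.129).

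**Figure D4:**
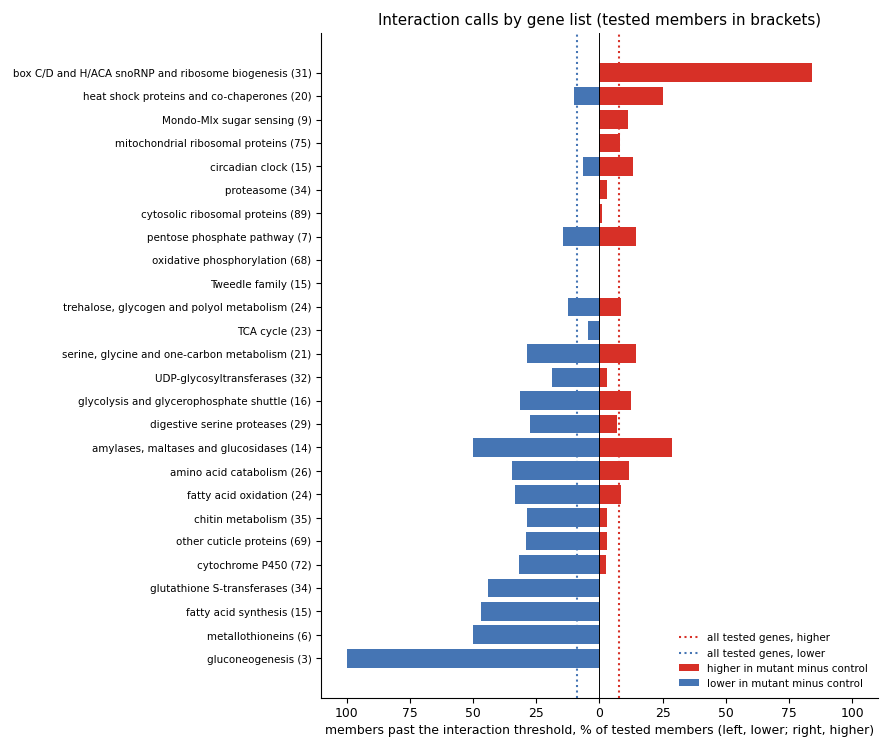
Share of the tested members of each gene list past the interaction threshold, in % of tested members, lower to the left in blue and higher to the right in red, with dotted lines at 8.95% lower and 7.92% higher for all genes. Ribosome biogenesis genes stand to the right with 26 of 31, and fatty acid synthesis, glutathione S-transferases and metallothioneins stand to the left with none higher.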

How the data were processed

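RNA of whole larvae was sequenced from rRNA-depleted libraries made with a stranded kit, per the labels' protocols. Trimmomatic, TopHat2 (version 2.1.0), HTSeq and limma are named, without roles or order, per the submitters' processing notes. No source used here gives the genome build. The deposited expression values are CPM by the table's name, but 9 of 16 columns sum to more than 1e6, so they are taken as a signal whose exact scaling is unknown, and the test planned for CPM was kept. The sums went with the diet: in control 960909 to 971423 on low and 1018636 to 1043965 on high sugar. In the mutant they were 971950 to 1013107 and 1005363 to 1032362, with overlap. Median-ratio scaling called 1615 genes and quantile normalization 1666. In each library the values were whole multiples of the smallest step, from which the depth follows. The authors' deposited table also holds their log2 coefficients, statistics as scores, and p-values, which were not used.

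Genes that reached 1 CPM in 4 or more libraries were fitted as log2(CPM + 0.5) with limma 3.58.1 in R 4.3.3, with 1 mean per group over all 16 libraries, eBayes with trend, 12 residual and 2.97 prior degrees of freedom, two-sided. The fit was also run on simulated data with independent normal noise on the log2 scale, no floor at 0 and no effect shared within a library. That run cannot speak for low values or for the dependence on single libraries. Figures were drawn with Python 3.11.15 and matplotlib 3.10.9. Symbols and positions came from Ensembl's annotation of BDGP6, which held 9702 of the 9837 tested IDs.

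The members, gene lists and tests were chosen with earlier results of these data known. Named genes were cwo, sug, cbt, Mondo, tim and vri, the 6 genes with the largest interaction of each class whose highest group reached 5 CPM, and up to 4 genes of each list with the smallest adjusted p; a subset is printed, and genes outside the rule are marked. The gene per is not analysed here. Alternatives were other pseudocounts, filters, scalings, a square root scale, a robust fit, array weights, a replicate block, the Tweedle score as a covariate, a threshold of 0.01, a minimum of 1 log2 unit and leaving out each library. Fits without the 4 libraries of highest or lowest Tweedle score were chosen after seeing the data.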

Additional observations from a re-analysis of the deposited data

Results flagged for a closer look

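The sugar response differed between the genotypes by the test of the interaction itself for 1659 genes, which is the subject of the report. Beside it, 30 of 384 groups of 4 libraries of the printed genes held 1 library far from the other 3, by Dixon's test at the 95% level, where chance gives about 1 in 20 groups. In control on low sugar, the single value lay above the rest for Lcp2 in replicate 4 (17 CPM, others 12.4 to 12.9) and Hsp70Bb in replicate 1 (0.844 CPM, others 0.0552 to 0.168). It lay above also for Cyp12a4 in replicate 4 (93.5 CPM, others 84.4 to 85.7) and GstD8 in replicate 4 (12.9 CPM, others 8.55 to 9.17). Further values above the rest were those of ImpL2 in replicate 1 (103 CPM, others 70.4 to 72.6). In control on low sugar, the single value lay below the rest for CG12766 in replicate 2 (2.46 CPM, others 3.24 to 3.26) and mmy in replicate 2 (85.7 CPM, others 90.1 to 90.6). In control on high sugar, the single value lay above the rest for yip2 in replicate 3 (96.4 CPM, others 81.6 to 83.7) and GstD8 in replicate 2 (72.9 CPM, others 42 to 46.7). It lay above also for CkIIalpha in replicate 1 (175 CPM, others 159 to 162). In control on high sugar, the single value lay below the rest for CG17570 in replicate 2 (16.7 CPM, others 20.1 to 20.7) and CG9512 in replicate 2 (659 CPM, others 758 to 776). It lay below also for Idh in replicate 3 (919 CPM, others 989.9 to 999.8). In mutant on low sugar, the single value lay above the rest for Gnmt in replicate 3 (341 CPM, others 267 to 276) and AcCoAS in replicate 2 (499 CPM, others 325 to 329.6). It lay above also for Men in replicate 2 (777 CPM, others 680.1 to 690.4) and aay in replicate 2 (72.5 CPM, others 51.1 to 52.1). Further values above the rest were those of mmy in replicate 4 (123 CPM, others 98.5 to 102) and Alp2 in replicate 4 (14.3 CPM, others 13.2 to 13.4). In mutant on low sugar, the single value lay below the rest for cwo in replicate 1 (139 CPM, others 192 to 199) and thetaTry in replicate 4 (50.1 CPM, others 62 to 63.6). It lay below also for Lcp1 in replicate 1 (1.61 CPM, others 2.44 to 2.60). In mutant on high sugar, the single value lay above the rest for CG7560 in replicate 1 (1.26 CPM, others 1.11 to 1.13) and GstD8 in replicate 2 (15.5 CPM, others 13.7 to 13.8). It lay above also for MtnC in replicate 2 (7.85 CPM, others 5.99 to 6.26) and MtnB in replicate 2 (55.8 CPM, others 46.1 to 47.3). In mutant on high sugar, the single value lay below the rest for Mondo in replicate 2 (309 CPM, others 331 to 335) and tobi in replicate 2 (0.344 CPM, others 0.596 to 0.635). It lay below also for Zw in replicate 3 (271 CPM, others 304 to 308) and CG4302 in replicate 3 (103 CPM, others 121 to 124).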

How the results depend on the processing

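Under 14 other settings, listed with the processing, and in 16 fits that each left out 1 library, the count of genes with a different sugar response moved by over 1.5 times at a threshold of 0.01 (627 genes, 257 higher and 370 lower) and with a minimum of 1 log2 unit (157). It also did so in the fit without the 4 libraries of highest Tweedle score. Leaving out each library gave 1196 to 2451 for genes called, 534 to 1201 for genes higher, 660 to 1250 for genes lower, 10 to 24 for class lost and 263 to 726 for class not passing. By list it gave 1 to 2 for cytosolic ribosomal proteins, 2 to 22 for mitochondrial ribosomal proteins, 0 to 4 for proteasome, 1 to 4 for pentose phosphate pathway, 1 to 2 for TCA cycle, 5 to 11 for trehalose, glycogen and polyol metabolism, 1 to 3 for Mondo-Mlx sugar sensing and 0 to 4 for circadian clock. The cause of these changes was not tested.

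Without the 4 libraries of highest Tweedle score, 790 genes were called, 285 higher and 505 lower, with 11 lost, 211 not passing, 424 weaker, 36 stronger and 68 gained. By list it left 12 ribosome biogenesis genes, 12 cuticle genes, 4 each of glycolysis and fatty acid oxidation, 3 of fatty acid synthesis, 1 each of mitochondrial ribosomal proteins and the pentose phosphate pathway, and 0 of cytosolic ribosomal proteins, proteasome and clock. Without the 4 of lowest score the counts were 0 for the proteasome, 4 for glycolysis, 1 for the pentose phosphate pathway, 8 for trehalose, glycogen and polyols, 6 for fatty acid oxidation and 2 for Mondo-Mlx. Asking for 1 log2 unit left 37 not passing, 72 weaker, 11 stronger, 9 reversed and 15 gained. Quantile normalization gave 4 pentose phosphate, 3 TCA, 9 trehalose and 5 clock genes. Array weights gave 628 genes not passing, 16 mitochondrial ribosomal, 4 pentose phosphate, 2 TCA, 9 trehalose and 2 Mondo-Mlx genes. The square root scale gave 15 ribosome biogenesis, 2 mitochondrial ribosomal and 2 proteasome genes, the robust fit 0 proteasome genes, and the Tweedle covariate 8 trehalose and 5 clock genes.

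The replicate block called 1949 genes, and 10 of the trehalose list. Deviations from the group means correlated at -0.34 to 0.44 between same-numbered libraries (13 of 24 above 0.1) and at -0.57 to 0.50 between others. Of 16 libraries 5 were closest to their own number. These values do not settle whether the numbers mark pairs, and the main fit does not take them as pairs. The interaction of tim changed sign at a pseudocount of 1 (0.15) and 5 (0.64), after quantile normalization (0.047), on the square root scale (1.52), without the 4 libraries of lowest Tweedle score (0.030) and without 1 of 3 libraries (0.0012 to 0.011, with a range of -0.15 to 0.011 over all 16). That of CG12766 changed sign on the square root scale (0.057, adjusted p = 0.943). Differences of transcripts near the added constant are the least certain at this depth.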

Other observations

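Some genes of the metallothionein list, most of whose products bind copper and zinc, rose less on sugar in the mutant. Of 6 tested genes of the list 3 were lower in the interaction and none higher (8.95% of all genes were lower), and 1 passed without the 4 libraries of highest Tweedle score. In control larvae, MtnC stood at 1.91, 1.47, 0.992 and 1.71 CPM on low sugar and at 11.1, 8.13, 10.3 and 9.34 CPM on high sugar. The MtnC values of mutant-labelled larvae were 6.79, 5.71, 4.29 and 4.12 CPM on low sugar and 6.26, 7.85, 6.04 and 5.99 CPM on high sugar. On low sugar the mutant libraries of MtnC lay above those of control, on high sugar they lay below, and the mutant libraries of the 2 diets overlapped. MtnC rose by 2.35 ± 0.16 in control and did not pass in the mutant (0.31 ± 0.16, adjusted p = 0.122), an interaction of -2.04 ± 0.23 (adjusted p = 5.79e-05). MtnB had -0.94 ± 0.20 (adjusted p = 0.00657) and MTF-1, the metal-responsive transcription factor, -0.28 ± 0.085 (adjusted p = 0.0364). Neither passed without those 4 libraries (adjusted p = 0.0519 and 0.151), and MTF-1 lost its call in 12 of 16 fits that left out 1 library.

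Several chaperones of protein folding fell less on sugar in the mutant. Of 20 tested heat shock proteins and co-chaperones 5 were higher and 2 lower, 35.0% against 16.9%, and 2 and 1 passed without the 4 libraries of highest Tweedle score. In control larvae, Hsc70-3 stood at 1418, 1204, 1305 and 1249.9 CPM on low sugar and at 488, 572, 486 and 406 CPM on high sugar. The Hsc70-3 values of mutant-labelled larvae were 1134, 1014, 883 and 917 CPM on low sugar and 678, 594, 604 and 581 CPM on high sugar. Hsc70-3 is the chaperone BiP of the endoplasmic reticulum, and its mutant libraries lay below those of control on low sugar and above them on high sugar. The fall was -1.41 ± 0.10 in control and -0.68 ± 0.10 in the mutant, an interaction of 0.73 ± 0.14 (adjusted p = 0.00255). Hsc70-4 had 0.39 ± 0.10 (adjusted p = 0.0145) and no longer passed without those libraries (adjusted p = 0.0781), and DnaJ-1, a co-chaperone, passed in the mutant only at -0.50 ± 0.11 (adjusted p = 0.00565). Hsp70Bb stood under 1 CPM in all control libraries and between 3.60 and 16.8 CPM in the mutant, and its copies are near-identical, so its interaction of 1.21 ± 0.36 (adjusted p = 0.0315) is uncertain, and it was lost at a pseudocount of 0.25 (adjusted p = 0.0987). ImpL2, which binds insulin-like peptides, did not pass in control (-0.13 ± 0.10) and rose in the mutant by 0.55 ± 0.10, an interaction of 0.68 ± 0.14 (adjusted p = 0.00455). Sesn, a stress-induced inhibitor of TOR signalling, rose by 0.52 ± 0.055 in control and did not pass in the mutant (0.029 ± 0.055), an interaction of -0.49 ± 0.078 (adjusted p = 9.46e-04). Root, which encodes the ciliary rootlet protein rootletin, rose by 0.83 ± 0.14 in control and by 2.04 ± 0.14 in the mutant, an interaction of 1.21 ± 0.20 (adjusted p = 0.00115). LysE, a gut lysozyme, passed in the mutant only, with an interaction of 0.95 ± 0.24 (adjusted p = 0.0144), and LysD, a near-identical neighbour, stood under 1 CPM in all mutant libraries and had an interaction of 0.62 ± 0.17 (adjusted p = 0.0231). The LysD call was lost at a pseudocount of 1 (adjusted p = 0.053) and 5 (0.163), on the square root scale (0.174) and without replicate 2 of control on low sugar (0.0511).

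Markers of some tissues did not pass and those of others did, beside 7.92% higher and 8.95% lower among all genes. By limma none of the 9 enteroendocrine, 9 haemocyte, 7 tracheal and 5 testis markers passed (at an unadjusted p under 0.05, 1, 2, 1 and 0). Lower were 3 of 12 neuronal, 2 of 7 fat body, 2 of 6 oenocyte, 1 of 12 muscle and 1 of 9 Malpighian tubule markers, and none was higher. Glial markers had 3 lower and 1 higher of 8 (50%). Without the 4 libraries of highest Tweedle score, 1 glial, 1 fat body and 1 oenocyte marker were lower. No neuronal, muscle or Malpighian tubule marker passed without them. Of 6 salivary gland markers 3 were lower and 1 higher (66.7% against 16.9% of all genes), with 3 lower without those libraries. Their summed level was 152 to 195 CPM on low and 284 to 378 CPM on high sugar in control, against 58.6 to 64.1 and 57.0 to 60.2 CPM in the mutant. Its part in other results was not tested.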
